A study of Mus musculus with 2 samples.

Results

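The genes described here are 6 members of the S100 family, namely S100a8, S100a9, S100a4, S100a6, S100a10 and S100a11. They were taken by symbol from a table of 49315 genes, and each symbol matched 1 row. RNA was sequenced from cells labelled as mouse macrophages of the dorsal root ganglia, where the cell bodies of sensory neurons lie next to the spinal cord. The normoxia group was kept at about 21% oxygen, and the chronic intermittent hypoxia group, an animal model of sleep apnoea, was brought down to 8% and back in 6 min cycles, 10 per hour, for 8 h a day on 14 days. Both groups sat in the same kind of chamber, and cells were taken about 18 h after the last session. Each group is 1 library. The sources used here do not give the strain, the age, the number of mice pooled or how macrophages were obtained. The column of the hypoxia library was matched to its sample by the initial of its code alone.

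S100 proteins are small proteins with a pair of EF-hand motifs, the loops that in most members hold the calcium ion. In those members binding of calcium opens a surface that grips target proteins. S100a8 and S100a9 encode the subunits of calprotectin, which neutrophils and monocytes store in their cytosol in large amounts and release in inflammation, where it binds zinc and manganese and acts on Toll-like receptor 4. S100a10 pairs with annexin A2, S100a11 with annexin A1, S100a6 (calcyclin) with several annexins and the calcyclin-binding protein, and S100a4 with non-muscle myosin. These 4 are expressed in many cell types, among them macrophages, fibroblasts and glia.

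All 6 genes lie in the S100 cluster of chromosome 3 (positions on GRCm38, GENCODE M21). S100a4 (ENSMUSG00000001020) spans 90603771 to 90606045, S100a6 (ENSMUSG00000001025) 90612882 to 90624181, S100a8 (ENSMUSG00000056054) 90668978 to 90670035 and S100a9 (ENSMUSG00000056071) 90692632 to 90695721. S100a11 (ENSMUSG00000027907) at 93520488 to 93526287 and S100a10 (ENSMUSG00000041959) at 93555080 to 93564643 lie at the far end. S100a8 runs on the forward strand and S100a9 on the reverse strand, so that their 3′ ends face each other across 22596 bases that hold no annotated gene. Between the outermost S100 genes of this chromosome (90511034 to 93564643) lay 61 coding genes of other families, mostly of the epidermis. Of these 1 was counted in normoxia, Gm9774 with 12 counts, and 0 in hypoxia. The counts of coding genes in this stretch thus came almost wholly from the S100 family.

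S100a8 and S100a9 moved together in these libraries, so the sequence before each start is shown, 5′ to 3′ on the gene's own strand. The stretches come from RefSeq's windows on GRCm38.p6, end where the outermost annotated transcript begins, and lie at chr3:90668821-90668977 (forward strand) and chr3:90695722-90695971 (reverse strand). Capitals mark matches to TTNNGNAA, the core of the consensus of C/EBP factors, which act in the myeloid lineage.
S100a8: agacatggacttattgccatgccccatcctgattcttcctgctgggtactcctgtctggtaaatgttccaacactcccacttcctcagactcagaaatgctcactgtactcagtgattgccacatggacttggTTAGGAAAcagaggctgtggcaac
S100a9: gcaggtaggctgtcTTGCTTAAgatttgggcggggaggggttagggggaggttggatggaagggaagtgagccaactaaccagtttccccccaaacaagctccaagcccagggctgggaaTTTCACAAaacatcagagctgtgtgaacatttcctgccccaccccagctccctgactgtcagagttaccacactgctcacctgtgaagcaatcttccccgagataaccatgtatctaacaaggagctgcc

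Matches were sought on both strands in the full window of 300 bases, 250 before and 50 after the RefSeq start. For S100a8 that start (90669071) lies past the GENCODE start (90668978), before which the stretch shown ends. The S100a8 match begins 117 bases upstream of the RefSeq start and the S100a9 matches 236 and 130 bases upstream. Such a match is common, since 40.7% of 32851 mouse windows hold it. The windows of S100a4, S100a6 and S100a11 hold none, and S100a10 had no window. TATAAA, the letters of the TATA box (13.6% of all windows), begins 30 bases upstream of the S100a8 RefSeq start, past the stretch shown. It also begins 31 bases upstream of the S100a4 start and at base 1 after the S100a9 start. ACGTG, the core bound by hypoxia-inducible factors (19.6% of windows), is found in neither calprotectin window. In the S100a6 and S100a11 windows it occurs on both strands of 1 overlapping site each. The AP-1 letters TGANTCA (7.81% of windows) occur in the S100a11 window, 136 and 38 bases upstream. The PU.1 core GAGGAA (28.3% of windows) occurs in those of S100a8, S100a4 and S100a11. A match describes the letters only.

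The normoxia library held 2171348 counts over 4640 genes and the hypoxia library 145056 counts over 2050 genes, with 1158 genes counted in both. Of 13 macrophage markers 11 were counted in normoxia, led by the macrophage surface receptor gene Adgre1 (1764 counts), Cd68 (1565) and Csf1r (1326). In hypoxia Cx3cr1 alone was counted, with 6 counts, and Adgre1 was the 1 marker of these whose interval on molecules excluded 1, so for the other markers taken singly 0 counts do not show absence. Red cell markers were abundant in both, with Hbb-bs at 88388 and 5121 counts. Copies of the same starting molecule could not be merged. The median count of genes seen in 1 library only, with at least 10 counts, was 229 in normoxia and 39 in hypoxia, and these values were used as an estimate of reads per molecule. That estimate assumes that such genes mostly stem from 1 molecule, which was not tested. Ratios below are of counts scaled by TMM (a trimmed mean over genes counted in both libraries), hypoxia over normoxia, with exact 95% intervals first on reads and then on estimated molecules. A single library for each group gives neither a replicate spread nor a test, and all intervals cover counting error only.

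Calprotectin genes made up a larger part of the hypoxia library. S100a8 had 10004 counts in normoxia and 3561 in the 15.0-fold shallower hypoxia library. Its level in the authors' TPM, a scale per gene length and library, was 12146 in normoxia and 49670.1 in hypoxia. S100a9 had 11656 and 4197 counts, and its TPM was 18814 and 77831. Both genes were therefore high in the hypoxia library and already among the most abundant in normoxia. By TPM, S100a9 ranked 7 of all genes in normoxia and 2 in hypoxia, and S100a8 ranked 10 and 5.

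**Figure D1:**
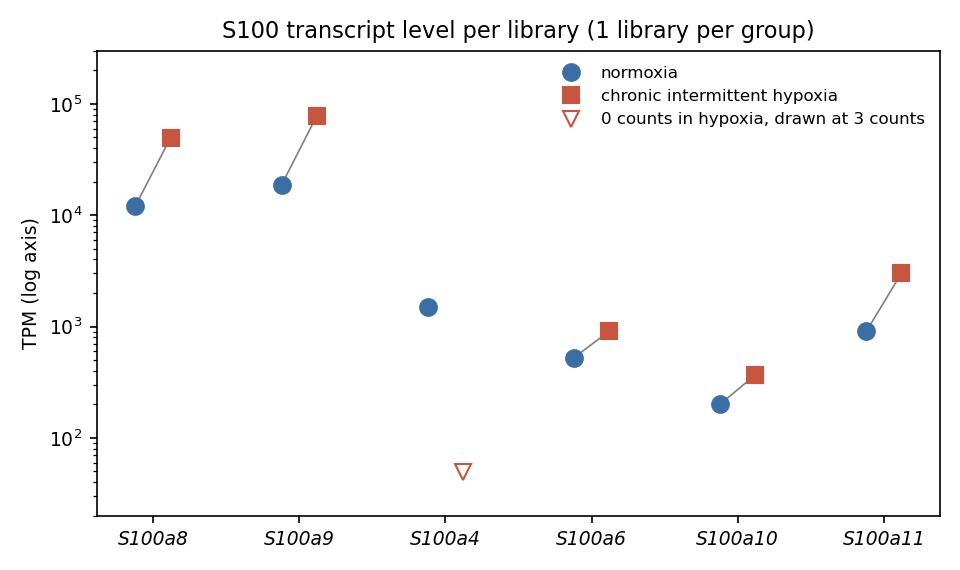
TPM of each S100 gene on a log axis, with circles for the normoxia library and squares for the hypoxia library. The calprotectin genes stand at 12146 and 18814 TPM in normoxia and 49670.1 and 77831 in hypoxia, the other genes counted in hypoxia stay at or below 3012, and S100a4, with 0 counts in hypoxia, is drawn as an open triangle at the TPM of 3 counts (49.7).

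On TMM the ratio was 3.05 for S100a8 (2.94 to 3.17 on reads, 2.11 to 4.48 on molecules) and 3.09 for S100a9 (2.98 to 3.20, and 2.19 to 4.40). In the authors' TPM the same genes stood 4.09-fold and 4.14-fold higher, and on total counts 5.33-fold and 5.39-fold. A gene was called higher or lower when the ratio was at least 2-fold and its interval excluded 1, among genes with at least 50 counts over both libraries. Both calprotectin genes were higher, with intervals on reads and on molecules. Over all 4215 genes measured, 11.9% were higher and 75.7% lower with intervals on reads, and 0.19% were higher and 1.3% lower with intervals on molecules. The calprotectin genes were thus 2 of the 8 genes in the table that were higher on molecules. The other 6 were the neutrophil granule genes Lcn2, Camp and Ngp and, with 0 counts in normoxia, Dock10, Asns and Ylpm1. Among the 14 genes with at least as many normoxia counts as S100a8, 2 (14.3%) were higher, S100a8 and S100a9 themselves, under TMM. In bulk RNA a change in the number of cells of a type and a change in RNA per cell cannot be told apart.

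Both calprotectin subunits were counted in nearly the same proportion in each library. The count of S100a8 divided by that of S100a9 was 0.858 in normoxia and 0.848 in hypoxia, and their ratio of ratios was 0.989 (0.938 to 1.04 on reads, 0.581 to 1.64 on molecules). This quantity does not depend on library scaling. Of all normoxia counts the pair took 0.998% (0.984 to 1.01 on reads), of all hypoxia counts 5.35% (5.23 to 5.47), and of TPM 3.10% and 12.8%. S100a9 and S100a8 showed the largest and the next largest gains in TPM of all genes. Their joint gain of 9.65 percentage points was 20.2% of all gains in TPM, which in a fixed total are offset by falls elsewhere.

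The other 4 members were much less abundant and differed among themselves. S100a11, which binds annexin A1, had 549 counts in normoxia and 159 in hypoxia, or 905 and 3012 TPM. Its ratio was 2.48 (2.07 to 2.97 on reads), higher by the size rule, but its interval on molecules ran from 0.390 to 21.5. S100a6 had 853 and 128 counts (526 and 906 TPM), with a ratio of 1.29 (1.06 to 1.55, and 0.200 to 7.76). S100a10 had 289 and 46 counts (201 and 367 TPM), with a ratio of 1.37 (0.978 to 1.87, and 0.0303 to 54.0). S100a6 and S100a10 were neither higher nor lower on TMM. On total counts both were above 2-fold, at 2.25 (1.85 to 2.71 on reads) and 2.38 (1.71 to 3.26), and S100a11 at 4.34. On that scale 5 members were higher and S100a4 lower, against 16.1% and 71.5% of genes, and the same counts came from scaling to housekeeping genes, against 16.9% and 70.7%. These genes rest on an estimated 1.26 to 3.72 molecules in normoxia and 1.18 to 4.08 in hypoxia, against 43.7 to 50.9 and 91.3 to 107.6 for the calprotectin genes. At that number of molecules no difference in S100a6, S100a10 or S100a11 was detectable.

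S100a4 went the other way. It had 1041 counts in normoxia, the most of these 4 genes and 1502 TPM, and 0 in hypoxia. With a floor of 3 counts in place of 0 it was at least 40.5-fold lower on TMM and 23.2-fold lower on total counts. The exact interval on reads is wider than that floor, with upper limits of 0.0304 and 0.0531 on the ratio, and S100a4 was lower by the size rule on reads. At an equal share of the library it would have given 69.5 reads in hypoxia, which is an estimated 1.78 molecules, and at an equal TMM level 3.11 molecules. The interval of its ratio on molecules reached 1.83 and included 1. Of the 1524 genes with a normoxia count between those of S100a10 and S100a4, 30.2% were counted in hypoxia. S100a6, S100a10 and S100a11 were on that side and S100a4 was with the majority. The gene overlaps Gm42674 on the same strand, which had 0 counts in both libraries, and the sources used here do not say how shared reads were assigned.

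**Figure D2:**
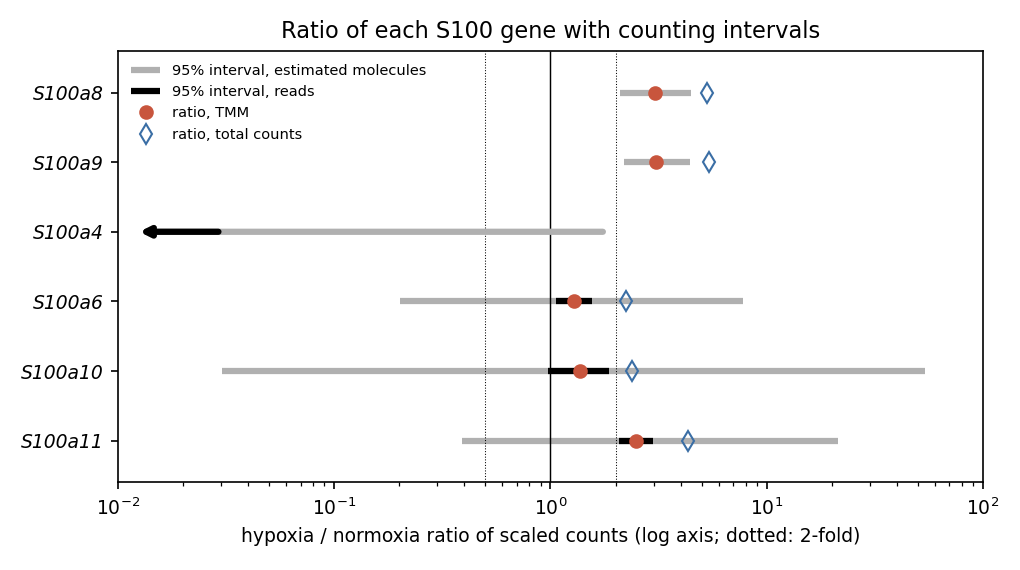
Ratio of hypoxia over normoxia for each S100 gene on a log axis, as filled circles for TMM and open diamonds for total counts, with 95% intervals on reads (black) and on estimated molecules (grey). S100a8 and S100a9 sit at 3.05 and 3.09 with grey intervals above 2, those of S100a6, S100a10 and S100a11 span 1, and S100a4, at 0 in hypoxia, has arrows from its upper limits of 0.0304 and 1.83.

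On TMM, 3 of the 6 members were higher, 1 lower and 2 neither by the size rule on reads, against 11.9% of genes higher and 75.7% lower. On molecules 2 were higher and 4 neither. Ratios between members, free of scaling, were compared in 15 pairs. On reads 13 intervals excluded 1. On molecules 2 did, those of S100a8 and S100a9 against S100a4, with lower limits of 1.79 and 1.85. S100a8 gained 2.37-fold on S100a6 (1.96 to 2.89 on reads, 0.442 to 19.5 on molecules) and 2.24-fold on S100a10 (1.63 to 3.13, 0.0258 to 164). Against S100a11 it gained 1.23-fold (1.02 to 1.48, 0.0903 to 7.53). The calprotectin pair had 7.93 times the counts of the other 4 genes in normoxia and 23.3 times in hypoxia, a gain of 2.94-fold (2.61 to 3.31 on reads, 1.04 to 7.76 on molecules). Without S100a4 that gain was 1.82-fold (1.61 to 2.06), with an interval on molecules of 0.499 to 5.08 that includes 1. The size of the shift between calprotectin and the rest thus depended on S100a4.

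**Figure D3:**
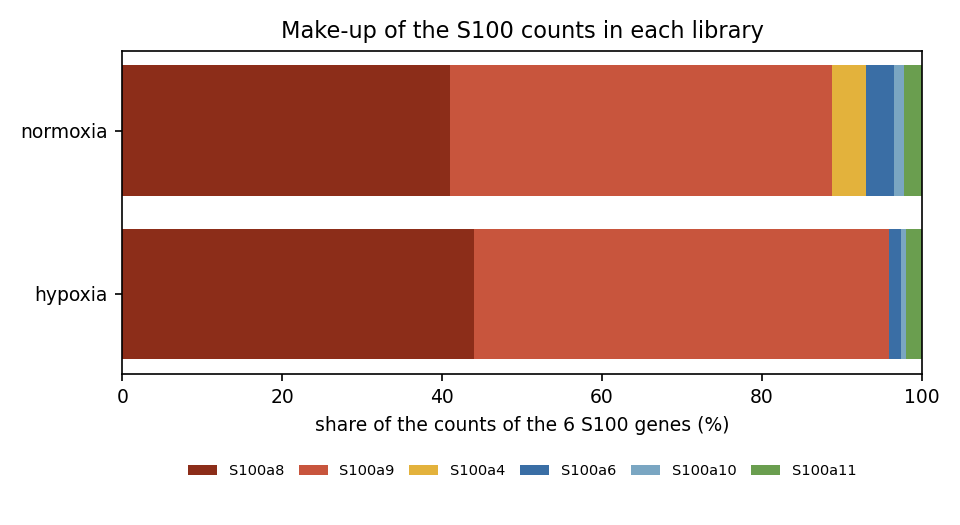
Share of the counts of the 6 S100 genes taken by each gene, in percent, as 1 stacked bar per library. S100a8 and S100a9 take 41.0% and 47.8% in normoxia and 44.0% and 51.9% in hypoxia, and the S100a4 segment, 4.27% in normoxia, is missing in hypoxia, where the exact 95% limit of a count of 0 is 0.0456%.

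The table listed 11 further S100 genes. Of these S100a13 (370 counts) and S100a1 (185) were counted in normoxia and none in hypoxia, and 9 had 0 counts in both libraries, among them S100b, the family member of Schwann cells and satellite glia. At an equal share S100a13 and S100a1 would have given 24.7 and 12.4 reads in hypoxia, or 0.634 and 0.317 estimated molecules. At an equal TMM level these would be 43.1 and 21.6 reads, or 1.11 and 0.553 molecules. Both genes were lower on reads, against 75.7% of all genes, and neither higher nor lower on molecules. On estimated molecules their absence was thus within what the depth allows. S100a11-ps, a pseudogene copy of S100a11, had 0 counts in both. As a group, 8 of 17 S100 genes were counted in normoxia and 5 of these 8 in hypoxia, all 5 of them members described above. Of all genes counted in normoxia, 25.0% were also counted in hypoxia.

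No measured partner of the widely expressed members was higher on TMM. Of 12 annexins and other binding partners 7 were measured, of which 3 were lower and 4 neither on reads, and none lower on molecules. Over all measured genes 11.9% were higher and 75.7% lower on reads, so 0 higher of 7 is near the share of all genes. Their median log2 ratio was -0.65, against -5.25 over all measured genes, most of which had 0 counts in hypoxia. Anxa1, the partner of S100a11, had 1608 and 283 counts in normoxia and hypoxia (ratio 1.51, 1.33 to 1.71 on reads, 0.459 to 4.99 on molecules). Anxa2, the partner of S100a10, had 693 and 134 (ratio 1.66, 1.37 to 2.00 on reads, 0.251 to 11.7 on molecules). Ahnak, a large scaffold protein that binds the S100a10 and annexin A2 complex, had 920 and 68 (ratio 0.634). Myh9, the heavy chain of the myosin that S100a4 binds, had 873 and 71 (ratio 0.698). The 3 lower genes were Anxa5 (755 and 34) and, with 0 counts in hypoxia, Anxa7 (415) and Anxa11 (209). Cacybp, the calcyclin-binding protein, was counted only in hypoxia, with 15 counts. On total counts Anxa1 and Anxa2 were higher (2.63 and 2.89), as S100a6, S100a10 and S100a11 were. Myh9 was still counted in hypoxia, where S100a4 was at 0.

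Among genes through which extracellular calprotectin acts, the count of lower genes was near that of all genes. Of 13 receptor and signalling genes 9 were measured, of which 0 were higher, 7 lower, 6 of these with 0 counts in hypoxia, and 2 neither, against 11.9% higher and 75.7% lower over all genes measured. On molecules 1 was lower, Bsg. Bsg, which encodes basigin, a receptor reported for S100A9, had 3334 and 61 counts (ratio 0.157, 0.120 to 0.202 on reads, 0.0113 to 0.776 on molecules). The adaptor gene Myd88 had 684 and 0, and Nfkb1 682 and 0. Tlr4 had 70 and 0 and its co-receptor gene Cd14 243 and 0. Rela (550 and 67, ratio 1.04) and the fatty acid receptor gene Cd36 (299 and 45, ratio 1.29) were neither on TMM, and Cd36 was higher on total counts (2.25). Ager, Ly96, Traf6 and Mapk14 had 0 counts in both libraries. Apart from Bsg, each gene of this list rests on an estimated 2.99 molecules or fewer in normoxia, so 0 counts in hypoxia are within what that library allows.

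S100a10 also carries plasminogen to the cell surface. Of 8 genes of that system 3 were measured, all lower (75.7% of all genes were), but on molecules Eno1 alone: Eno1, an enolase that is also a plasminogen receptor (3700 and 105 counts, ratio 0.243, 0.0404 to 0.892 on molecules), and, with 0 counts in hypoxia, Plgrkt (348) and Plaur (214). Plau was counted only in hypoxia, with 38 counts. Of 16 EF-hand genes outside the S100 family 11 were measured, with 0 higher, 7 lower and 4 neither, again near the 11.9% and 75.7% of all genes, and a median log2 ratio of -1.51. Calm2 and Calm3, which encode the calcium sensor calmodulin, had 240 and 54 counts (ratio 1.93) and 312 and 40 counts (1.10). Lcp1, the leukocyte actin-bundling protein, had 1748 and 185 (0.908). None of these EF-hand genes was higher on TMM, where S100a8, S100a9 and S100a11 were. Calm2 was higher on total counts (3.37) and with DESeq2 size factors.

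**Figure D4:**
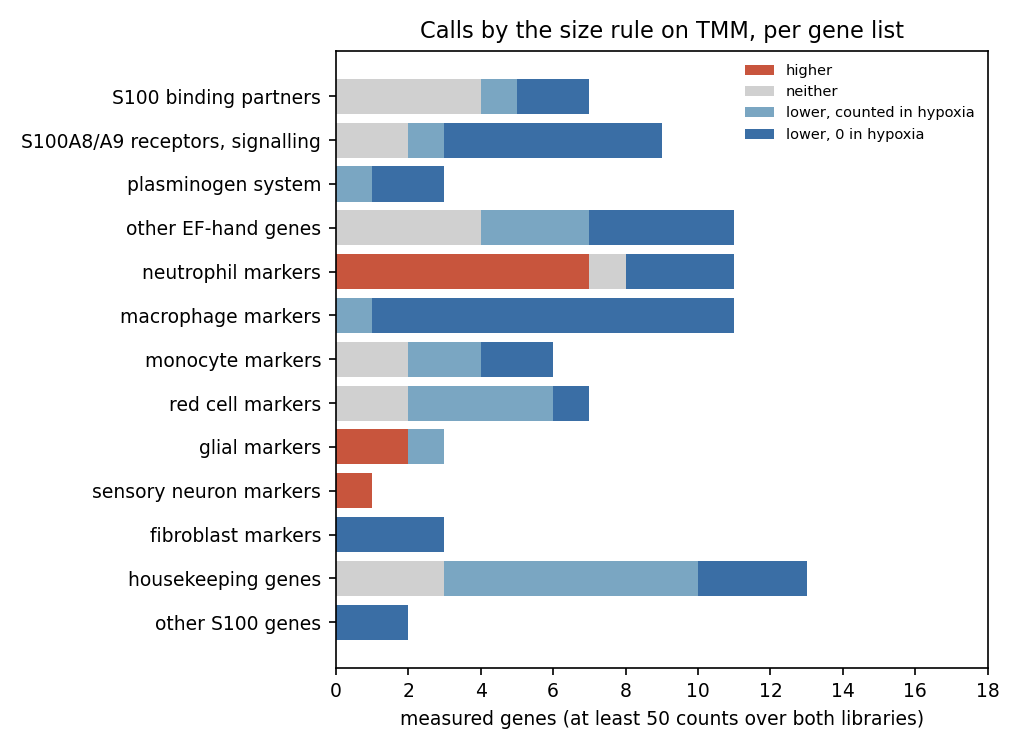
Number of measured genes (x axis) called higher, neither, or lower in each gene list, with the lower genes split by whether they were counted in hypoxia. On TMM, higher genes are 7 of 11 neutrophil markers, 2 of 3 glial markers and the 1 measured neuron marker. On the same scale 10 of 11 macrophage markers are lower with 0 counts in hypoxia. Over all 4215 measured genes 11.9% are higher and 75.7% lower, and 2883 are lower with 0 counts in hypoxia. On total counts Anxa1, Anxa2, Cd36 and Calm2 are higher too.

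Markers of neutrophils, taken as a sum, moved in the same direction as the calprotectin genes. Without S100 genes, the list of 17 took 0.879% of counts in normoxia and 5.09% in hypoxia. Its TMM ratio was 3.32 (3.23 to 3.41 on reads, 2.55 to 4.35 on molecules). Of 11 measured genes 7 were higher and 3 lower on reads, against 11.9% and 75.7% of all genes. On molecules Ngp, Camp and Lcn2 alone were higher and none was lower. The granule genes Ngp (6932 and 3060 counts), Camp (2878 and 1441) and Lcn2 (2719 and 1393) had ratios of 3.79, 4.29 and 4.39, and Ltf (2986 and 739) had 2.12. On reads the calprotectin pair rose less than Ngp (ratio of ratios 0.811), Camp (0.715) and Lcn2 (0.699). The pair rose more than Ltf (1.45), and each of these intervals on reads excluded 1. On molecules the interval of the pair's ratio of ratios included 1 against Ngp (0.477 to 1.34), Lcn2 (0.316 to 1.45), Ltf (0.622 to 3.20) and Camp. Ly6g, a defining neutrophil marker, was at 0 in normoxia and 110 in hypoxia. Those counts are an estimated 2.82 molecules, and its interval on molecules, from 0.541 up, included 1. Mmp9 (522), Mpo (506) and Mmp8 (312) had 0 counts in hypoxia, and Cd177 was neither. The counts of S100a8 and S100a9 together were 1.14 times those of the neutrophil list in normoxia and 1.05 times in hypoxia, a ratio of ratios of 0.925 (0.891 to 0.960 on reads, 0.634 to 1.33 on molecules). Of 6 measured monocyte markers 4 were lower and 2 neither, and of 7 red cell markers 5 were lower and 2 neither, against 75.7% of all genes lower. Against the monocyte list the pair gained 7.44-fold (3.53 to 15.0 on molecules), with Plac8 at 2824 and 275 counts and Ccr2 at 2308 and 0. Against the red cell list it gained 6.49-fold (4.85 to 8.63), and against the housekeeping list, with 10 of 13 measured genes lower and 3 neither, 5.75-fold (3.92 to 8.49). Against the neutrophil list S100a6, S100a10 and S100a11 together had a ratio of ratios of 0.509 (0.450 to 0.574 on reads), with an interval on molecules that included 1 (0.181 to 1.85). The macrophage list summed to 10865 counts in normoxia and 6 in hypoxia, a TMM ratio of 0.00474 (0.00174 to 0.0103 on reads). Its upper limit on molecules was 0.128, so the summed list, unlike most of its markers taken singly, was lower on molecules too. The calprotectin pair gained 649-fold on it, with lower limits of 298 on reads and 24.7 on molecules. Of 3 measured glial markers Glul (129 and 85 counts) and Mbp (0 and 58) were higher on reads, against 11.9% of all genes. Neither was higher on molecules. Apoe (12776 and 249) was lower on reads and on molecules. Of neuronal markers Isl1 alone was measured (0 and 60) and was higher on reads but not on molecules. The 3 measured fibroblast markers were at 0 in hypoxia and lower on reads, against 75.7% of all genes. None of the 3 was lower on molecules, and each rests on an estimated 1.29 to 1.65 molecules in normoxia. Endothelial markers were at 0 in both libraries. The part of these cell types in the S100 ratios was not tested.

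**Figure D5:**
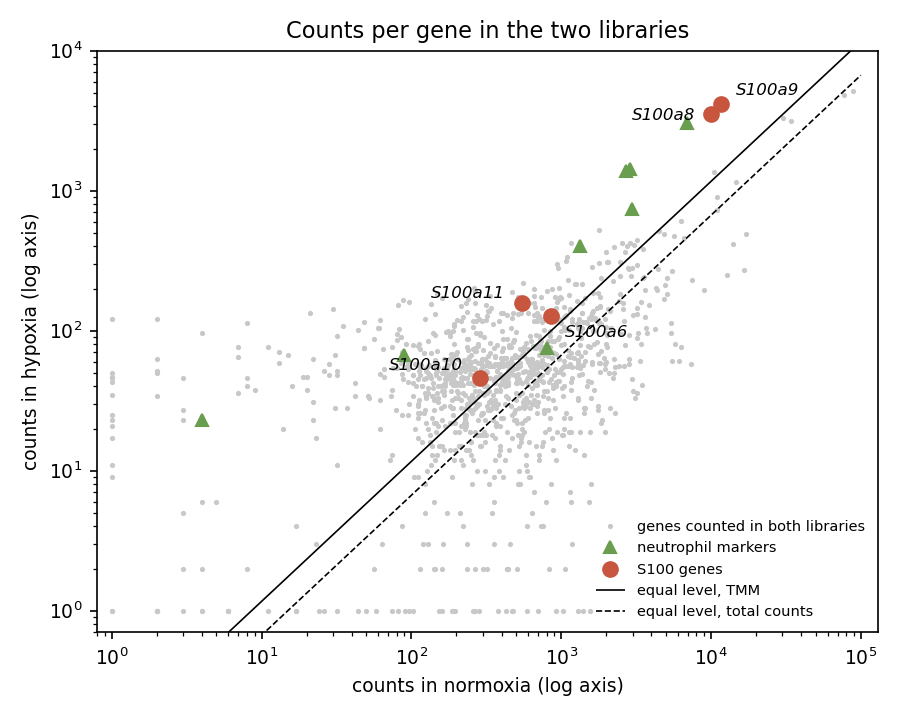
Counts of each gene in normoxia (x) and hypoxia (y), both on log axes, for the 1158 genes counted in both libraries, with S100 genes as circles, neutrophil markers as triangles and lines of equal level by TMM (solid) and total counts (dashed). S100a8 and S100a9 lie above both lines with Ngp beside them, S100a11 lies above both at lower counts, and S100a6 and S100a10 lie nearer the solid line.

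Genes closest to each member in level over the 2 libraries were found as the smallest distance in log2(TPM + 1) among 1091 coding genes. Nearest to S100a8 were the lysozyme gene Lyz2 (22647 and 24193 TPM, distance 1.37) and Ngp (4780 and 24240.0 TPM, distance 1.70), and nearest to S100a9 was again Lyz2 (1.71), followed by Hba-a1 (2.13). Few genes reach such levels, so these distances are large. S100a6 lay nearest to Rps3 (539 and 907 TPM, distance 0.0359), Cox6b1 and Cox6a1, and S100a10 nearest to Cyc1 (203 and 357 TPM, distance 0.0440), Rpl3 and Tuba1c. S100a11 lay nearest to Glrx5 (1002 and 2404 TPM, distance 0.356) and Ifitm3 (1207 and 2898 TPM, distance 0.418). With a single pair of libraries such likeness describes 2 values per gene and no more.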

How the data were processed

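The authors deposited raw read counts per gene and TPM values for the same 49315 genes and 2 libraries. STAR 2.5.2b, bcl2fastq 2.20 and featureCounts (Subread 1.5.2) are named, with no order or settings, per the submitters' processing notes. The sources used here give no genome build, strand setting or handling of duplicate and shared reads, and name no molecular identifiers. Intervals on reads thus treat copies of the same starting molecule as separate counts. With 1 library per group, all intervals cover counting error only. Deposited TPM is the counts over gene length, rescaled per library, and holds no separate measurement. Gene positions came from GENCODE M21, in which 48970 identifiers were found.

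Counts were scaled by TMM with edgeR 4.0.16 in R 4.3.3. Ratios carry exact conditional binomial (Clopper-Pearson) 95% intervals, and ratios of ratios the exact conditional interval of the odds ratio (scipy 1.17.1). On molecules, counts were first divided by 229 and 39. For ratios of ratios the quotients were then rounded to whole numbers. Median log2 ratios used a prior count of 0.5. The intervals on reads and the size rule were tested on simulated counts, drawn independently and without copies of starting molecules. The intervals on molecules were not tested in that way. Alternatives were total counts, DESeq2 1.42.0 size factors, scaling to 16 housekeeping genes, other count minimums and a 1.5-fold threshold.

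The members and the 14 gene lists were chosen with earlier results of these data known. Genes were named by a rule: the members, other counted S100 genes, up to 4 genes with most counts per list, genes behind counts of 5 or fewer, and the 3 nearest genes per member. Tlr4, Cd14, Cacybp, Sugt1, Plau, Ly6g, S100b, S100a11-ps, Gm42674, Dock10, Asns and Ylpm1 were named after their values were seen. Some genes under the rule are not reported here.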

Additional observations from a re-analysis of the deposited data

How the results depend on the processing

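Against TMM, total counts raise all log2 ratios by 0.80, scaling to housekeeping genes by 0.90 and DESeq2 size factors by 0.05. On total counts the ratio was 5.33 for S100a8, 5.39 for S100a9, 2.25 for S100a6, 2.38 for S100a10, 4.34 for S100a11, 5.36 for the calprotectin pair and 1.82 for the other 4 members together, which stood at 1.05 on TMM. Scaled to housekeeping genes these were 5.71, 5.78, 2.41, 2.55, 4.65, 5.75 and 1.96. With either scaling 5 members were higher in place of 3. DESeq2 size factors gave 3.21 for S100a9 and 3.19 for the pair. No member turned direction under the scalings tried. On estimated molecules S100a4 (ratio 0, interval to 1.83) and S100a11 (2.48) no longer met the size rule, leaving 0 members lower, and over all genes 8 were higher and 55 lower in place of 500 and 3192. A minimum of 10 counts gave 1059 genes higher, and no minimum 1147. Over the genes of all lists 10 were higher and 59 lower on TMM, where 11.9% and 75.7% of all measured genes were. These counts show how calls move with the settings and no trait of the lists. Those higher were 16 with housekeeping scaling, 17 from 10 counts, 18 with no minimum and 3 on molecules, where 11 were lower. As TPM the 6 members took 3.41% of normoxia and 13.2% of hypoxia in place of 1.12% and 5.58% of counts. No paired analysis was possible because each group is 1 library, and for the same reason no library could be left out.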

Other observations

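The lengths behind the authors' TPM could be read from the files. TPM divided by count gives a length for each gene up to a constant, and with that constant set by the median over 4632 genes, 82.2% of lengths lay within 1% of the union of all annotated exons in GENCODE M21. For the members the implied lengths were 694 bases for S100a8, 522 for S100a9, 584 for S100a4, 1367 for S100a6, 1212 for S100a10 and 511 for S100a11, each equal to the exon union. The union counts retained introns and rare transcripts, whereas the longest coding transcripts of S100a8, S100a6 and S100a10 measure 486, 731 and 685 bases. The order of members per length moves with this choice. In TPM, S100a9 stood at 1.55 times S100a8 in normoxia and 1.57 times in hypoxia, and per base of the longest coding transcript at 1.09 and 1.10 times. In normoxia S100a11 was above S100a6 in TPM (905 and 526) and below it per base of coding transcript (1.07 and 1.17 counts per base). Ratios between libraries for a single gene do not depend on the length.

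S100a4 and the monocyte marker F13a1, a coagulation factor subunit, had the same count in normoxia, 1041. In hypoxia F13a1 had 126 counts and S100a4 had 0. The pair was noticed after the values were seen and serves only to show how far genes of equal count parted between these libraries.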
